A study of Mus musculus with 4 samples.

Results

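The genes described here are the ADAMTS proteases, the matrix metalloproteinases (MMPs) and the tissue inhibitors of metalloproteinases (TIMPs) of the mouse. They were chosen by symbol, as every gene named Adamts, Mmp or Timp followed by a number, and made up 46 of the 24421 genes in the count files (19 Adamts, 23 Mmp and 4 Timp genes). The choice was made after Adamts genes had been seen to rise between the same libraries, so that the differences of these 46 genes between the states, and the calls made of them by the fit over all genes, are given as a description and not as a test. The study sequenced RNA from R1, an established line of mouse embryonic stem cells (ESCs), before and after differentiation with retinoic acid (RA), which cells make from vitamin A. The Illumina TruSeq data comprised 2 libraries of Undiff and 2 of Day4, from replicates that were grown and treated separately. Undiff is described as R1 cells kept in medium with leukaemia inhibitory factor, which holds ESCs undifferentiated, and in the labels as embryoid bodies, the aggregates in which ESCs differentiate. Day4 is embryoid bodies grown for 4 days without that factor and then for 4 days with RA, at 2 µM in the design text and at 2 mM in the treatment label. Undiff and Day4 differ in the factor, in time and in RA. Where Undiff is R1 cells as described, they also differ in growth as embryoid bodies. These differences cannot be told apart here. An embryoid body holds several cell types and was sequenced as a whole, so that fewer cells of a type and less RNA per cell cannot be told apart.

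ADAMTS proteases and MMPs are zinc-dependent enzymes that cut proteins of the extracellular matrix. Most ADAMTS proteases are secreted and bind the matrix through thrombospondin repeats, with substrates that include procollagens, versican, aggrecan and the proteins of fibrillin microfibrils. MMPs are made as inactive proenzymes, some secreted and some held at the cell surface, and are known for cutting collagens and basement membrane. TIMPs bind the active site of MMPs, and one of them, Timp3, is also known as an inhibitor of ADAMTS and ADAM proteases.

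The 4 libraries held between 32099074 and 47730944 fragments counted on genes, and a floor of 3 counts corresponded to between 0.0629 and 0.0935 CPM (counts scaled to the library total), which covers counting error only. Values below are normalized counts unless a sentence says otherwise, that is counts scaled by edgeR's TMM method to 1 common library size, and they compare libraries and not genes. The 8 markers of pluripotent cells, with Pou5f1 and Nanog among them, were all lower in Day4, and their summed level was 173721 and 175260 normalized counts in Undiff but 958 and 768 in Day4. Of 10 markers of fibroblasts and mesenchyme, 9 were higher and Thy1 was lower, with sums of 2991 and 2735 in Undiff that stood against 71711 and 66032 in Day4, and with Lum and Fap at the floor in Undiff. Of 9 markers of extraembryonic endoderm, 8 were higher and Cubn was lower, with sums of 1373 and 1622 in Undiff that stood against 21418 and 21111 in Day4, and with Afp at the floor in Undiff. Gata4 (9528 and 9714) and Gata6 (10571 and 10070) made up most of this Day4 sum. The next highest in Day4 was Sox7, at 755 and 752. Of the endothelial and muscle lists of 6 genes each, 4 and 2 were higher and 2 and 1 lower, with sums of 6318 to 6394 and 3301 to 3318 in Undiff and of 11431 to 11635 and 5277 to 6752 in Day4. The neural list of 6 genes had 1 higher and 4 lower genes, with sums of 4091 to 4294 in Undiff and of 687 to 703 in Day4. Macrophage and trophoblast markers were low throughout and lower in sum in Day4, with 1 and 3 genes lower and none higher. The macrophage sums were 105 and 115 normalized counts in Undiff and 9.40 and 9.21 in Day4. The trophoblast sums were 306 and 323 in Undiff and 90.9 and 74.5 in Day4. The macrophage markers Adgre1 and Aif1 were at the floor in both states, and Ptprc in Day4. Of the trophoblast markers, Prl3d1 was at the floor in both states and Tpbpa in Undiff. These markers moved together with the proteases and inhibitors below, and their part in those differences was not tested.

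A gene was called a differentially expressed gene (DEG) where edgeR's quasi-likelihood test gave an adjusted p of 0.05 or less, the states differed by 1 or more on the log2 scale in either direction, and the mean over the libraries was 5 normalized counts or more. Of the 46 genes, 43 had a count in at least 1 library and were tested, and Mmp1b, Mmp7 and Mmp27 were at 0 in every library. Among the 43, 20 were DEGs higher in Day4, where 22.2% of all 19891 tested genes were, and 10 were DEGs lower in Day4, where 20.6% of all tested genes were. In either direction 30 of the 43 were DEGs, beside 42.8% of all tested genes, and nothing is read from these counts since the contrast chose the genes. The libraries of the 2 states did not overlap for 38 of the 43, beside 85.4% of all tested genes. Of the Adamts genes, 13 were higher and 2 lower, with a median log2 fold change of 3.05. Of the 20 tested Mmp genes, 5 were higher and 8 lower, and of the 4 Timp genes 2 were higher and none lower. The median log2 fold change was -2.33 over the 20 tested Mmp genes, -1.53 with genes at 0 in Day4 set to their bound against the floor and genes at the floor in both states left out (-0.84 with those bounds taken without Undiff replicate 1), and 0.83 over the 11 Mmp genes with a mean of at least 50 normalized counts. It was 1.43 over the Timp genes and -0.03 over all tested genes. The 10 lower genes became 6 without Undiff replicate 1, because Mmp3, Mmp13, Mmp20 and Mmp21, which had at most 26 counts in a library, were then no longer DEGs.

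**Figure D1:**
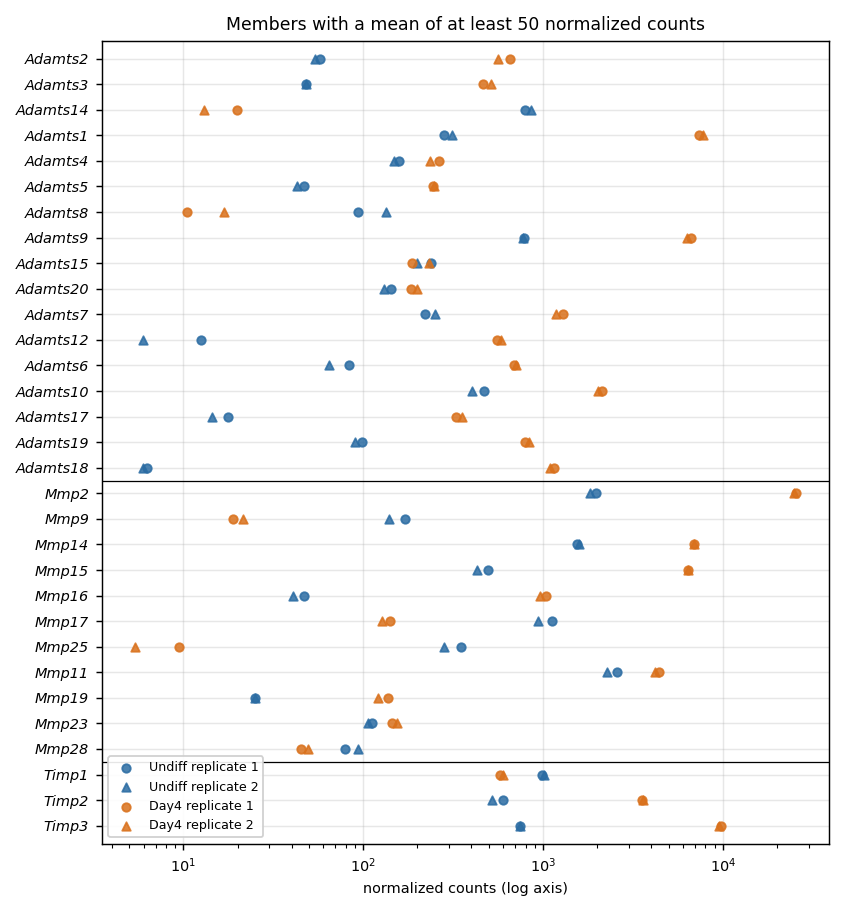
Normalized counts (log axis) of the 31 protease and inhibitor genes with a mean of at least 50 normalized counts, in Undiff (blue) and Day4 (orange), with circles for replicate 1 and triangles for replicate 2 of each state. The replicates of a state lay close together for most genes, and of the genes shown the states overlapped for Adamts15 alone.

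The procollagen N-proteinases Adamts2, Adamts3 and Adamts14 remove the amino-terminal propeptide of fibrillar procollagens, and they moved in opposite directions. Adamts14 (chr10:61197112-61273438 on the minus strand of GRCm38) was at 798 and 853 normalized counts in Undiff replicates 1 and 2, and at 19.8 and 13.1 in Day4 replicates 1 and 2. It fell by 5.68 on the log2 scale (SE 0.15), the steepest fall among the Adamts genes. Adamts2 was at 57.3 and 53.8 in Undiff and at 655 and 559.7 in Day4, and rose by 3.43 (SE 0.14) on the log2 scale. Adamts3, which also acts on the precursor of the lymphatic growth factor VEGF-C, was at 47.9 in both Undiff libraries and at 465 and 511 in Day4, and rose by 3.35 (SE 0.14). In Undiff most counts of this group came from Adamts14, and in Day4 from the other two. The sum over the 3 genes was 903 and 955 normalized counts in Undiff and 1140 and 1084 in Day4, a ratio of 1.20 between the means. Per exon length, as RPKM (counts scaled to the exon length of the gene and to the library size), their summed level was 4.50 and 4.77 in Undiff and 4.26 and 4.18 in Day4. With the longest transcript as gene length, it was 4.65 and 4.92 in Undiff and 5.66 and 5.59 in Day4. The direction of this small difference in the sum thus depended on the gene length used.

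The proteoglycanases, which cut the core proteins of versican and aggrecan, comprised 7 genes, of which 3 were higher and 1 lower. Adamts1 (chr16:85793827-85803113, minus strand) was at 282 and 309.9 normalized counts in Undiff and at 7374 and 7764 in Day4. It rose by 4.68 on the log2 scale (SE 0.07), and its level per exon length went from a mean of 1.49 to a mean of 38.1 RPKM. In Undiff it made up 11.0% and 11.9% of the summed Adamts RPKM, and in Day4 47.4% and 49.5%. Adamts5, the neighbour of Adamts1 on chromosome 16 (chr16:85856173-85901828, minus strand) and the main aggrecanase of mouse cartilage, was at 46.9 and 43.1 in Undiff and at 243 and 248 in Day4. Its log2 fold change was 2.44 (SE 0.15), and it stayed at a mean of 0.608 RPKM in Day4, far under its neighbour. Adamts9, which cuts versican and is needed for early mouse development, was at 786 and 778 in Undiff and at 6665 and 6295 in Day4. It rose by 3.05 on the log2 scale (SE 0.06) and was the Adamts gene with the highest level after Adamts1 in Day4, at 15.1% and 14.1% of the summed Adamts RPKM.

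Adamts8 and Adamts15 also lie next to each other, on chromosome 9 (chr9:30942562-30963838, plus strand, and chr9:30899155-30922452, minus strand). Adamts8 was at 93.8 and 134 normalized counts in Undiff and at 10.4 and 16.9 in Day4, and fell by 2.98 on the log2 scale (SE 0.30). Adamts15 was at 239.7 and 199.8 in Undiff and at 187 and 231 in Day4, with overlapping states and a log2 fold change of -0.06 (SE 0.14) whose sign depended on the scaling and on the libraries used. The remaining proteoglycanases stayed under the fold minimum of a DEG. Adamts4 was at 157 and 148 in Undiff and at 263 and 236 in Day4, a log2 fold change of 0.70 (SE 0.12). Adamts20, known in the mouse for its part in the spread of pigment cell precursors, was at 143 and 130.4 in Undiff and at 184 and 199.6 in Day4, a log2 fold change of 0.49 (SE 0.13). For both genes the Day4 libraries lay above the Undiff libraries, without reaching the fold minimum.

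Adamts7 and Adamts12 are known for cutting cartilage oligomeric matrix protein, and both rose. Adamts7 was at 222 and 250.1 normalized counts in Undiff and at 1290.1 and 1177 in Day4, a log2 fold change of 2.39 (SE 0.09). Adamts12 was at 12.5 and 5.98 in Undiff, which are 12 and 5 counts, and at 557 and 587 in Day4, a log2 fold change of 5.90 (SE 0.19). Leaving out 1 library at a time moved the latter between 5.51 and 6.55, the value without Undiff replicate 1.

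A group associated with fibrillin microfibrils or close in sequence to genes that are (Adamts6, Adamts10, Adamts17 and Adamts19) rose in all 4 of its genes. Adamts10, known with Adamts17 from inherited short stature with lens dislocation (Weill-Marchesani syndrome and its relatives), was at 468 and 402 normalized counts in Undiff and at 2135 and 2031 in Day4, a log2 fold change of 2.25 (SE 0.07). Adamts17 was at 17.7 and 14.4 in Undiff and at 329 and 352 in Day4, a log2 fold change of 4.39 (SE 0.19). Adamts6, the close relative of Adamts10, was at 83.4 and 64.6 in Undiff and at 688 and 705 in Day4, a log2 fold change of 3.22 (SE 0.12). Per exon length in Undiff, Adamts6 was at a mean of 0.253 RPKM, beside 0.180 for Adamts19, 0.0552 for Adamts17 and 1.41 for Adamts10. Adamts19, the close relative of Adamts17, was at 99.0 and 89.7 in Undiff and at 792 and 832 in Day4, a log2 fold change of 3.10 (SE 0.10). The spread between replicates in each of the 4 genes was small beside the distance between the states.

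Adamts18 rose most among the Adamts genes that were above the floor in every library. It was at 6.25 and 5.98 normalized counts in Undiff, which are 6 and 5 counts, and at 1157 and 1093 in Day4, and the log2 fold change was 7.49 (SE 0.16). Its close relative Adamts16 was at 0 and 1 counts in Undiff and at 48 and 66 counts in Day4. The ratio of its summed counts, scaled by the effective library sizes, was 90.6, with a 95% exact counting interval from 15.9 to 3608. Adamts13, which cuts von Willebrand factor and is made mainly in the liver, was at the floor in every library, with 1 to 3 counts.

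**Figure D2:**
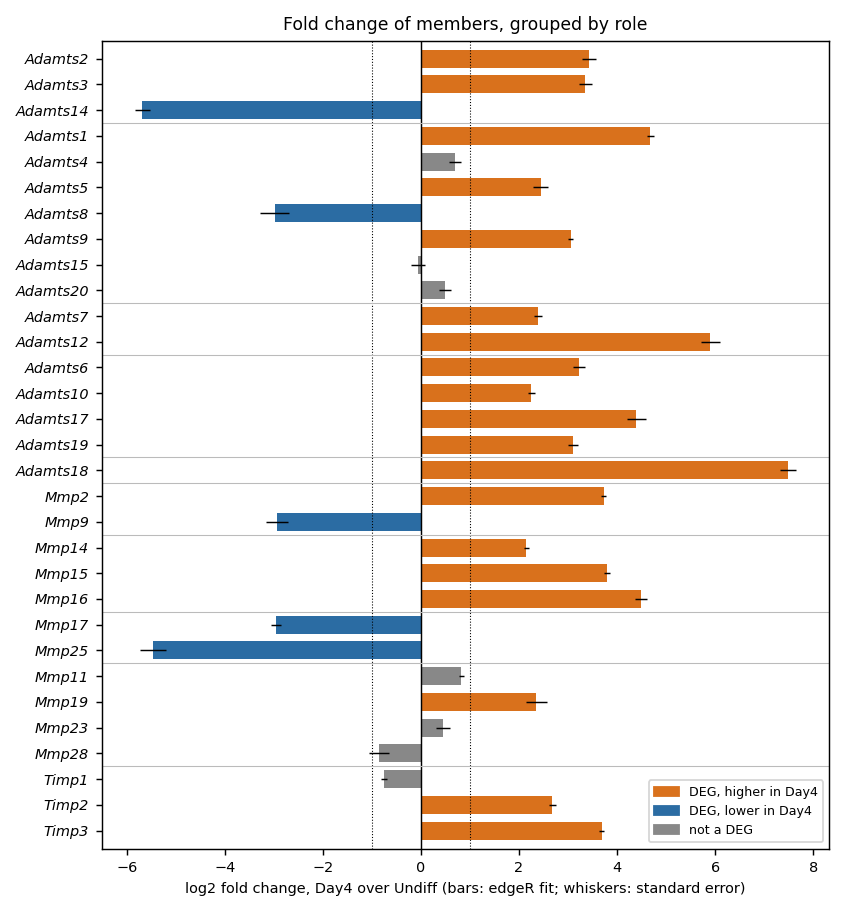
Log2 fold change of Day4 over Undiff from the edgeR fit (bars) with its standard error (whiskers) for the same 31 genes, in blocks by role, with DEGs higher in Day4 in orange, DEGs lower in Day4 in blue, other genes in grey and dotted lines at the fold minimum. Bars of both directions stand within the procollagen N-proteinases (Adamts2, Adamts3 and Adamts14), the proteoglycanases (Adamts1 to Adamts20) and the gelatinases (Mmp2 and Mmp9). The same holds for the other MMPs (Mmp11 to Mmp28) and the inhibitors (Timp1 to Timp3), where the bars to the left, Mmp28 and Timp1, are not DEGs. The transmembrane MMPs shown (Mmp14, Mmp15 and Mmp16, without Mmp24) point to the right, and the GPI-anchored MMPs (Mmp17 and Mmp25) to the left.

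The 2 gelatinases, which cut denatured collagen and collagen IV of the basement membrane, moved in opposite directions. Mmp2 (chr8:92827291-92853420, plus strand) was at 1977 and 1831 normalized counts in Undiff and at 25652 and 24840.2 in Day4, and rose by 3.73 on the log2 scale (SE 0.05). It made up 25.7% and 26.6% of the summed Mmp RPKM in Undiff and 64.5% and 64.1% in Day4. Mmp9 was at 171 and 140.0 in Undiff and at 18.8 and 21.5 in Day4, and fell by 2.93 on the log2 scale (SE 0.22). Most gelatinase counts came from Mmp2 in both states.

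Of the MMPs held at the cell surface, the 4 that span the membrane had 3 DEGs higher in Day4 and 1 lower. Those anchored in other ways, with Mmp23 among them, are given further below. Mmp14, Mmp15, Mmp16 and Mmp24 span the membrane, and Mmp14 is known as the activator of the Mmp2 proenzyme, in a complex with Timp2. Mmp14 (chr14:54431612-54445364, plus strand) was at 1549 and 1581 normalized counts in Undiff and at 6927 and 6931 in Day4, a log2 fold change of 2.15 (SE 0.05). Mmp15 was at 495 and 429.6 in Undiff and at 6388 and 6426 in Day4, a log2 fold change of 3.79 (SE 0.06). Mmp16 was at 46.9 and 40.7 in Undiff and at 1033 and 957 in Day4, a log2 fold change of 4.49 (SE 0.12). In Day4 Mmp14 and Mmp15 were at like levels per length of all their exons, with means of 31.1 and 31.7 RPKM. In Undiff they were at 7.01 and 2.29 RPKM. The longest transcript holds 3238 of the 5960 exon bases of Mmp14 and 5135 of the 5397 of Mmp15. The likeness in Day4 thus rested on the gene length used. Mmp24 was the exception among the transmembrane genes and fell, from 61.5 and 44.3 normalized counts in Undiff to 12.5 and 10.7 in Day4, a log2 fold change of -2.20 (SE 0.33).

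Mmp17 and Mmp25 are tied to the membrane by a glycosylphosphatidylinositol (GPI) anchor, and both fell. Mmp17 was at 1122 and 944 normalized counts in Undiff and at 141 and 127 in Day4, a log2 fold change of -2.96 (SE 0.11). Mmp25, best known from neutrophils, was at 351 and 281 in Undiff and at 9.40 and 5.37 in Day4, a log2 fold change of -5.46 (SE 0.26). Their sum was 1474 and 1225 normalized counts in Undiff and 150 and 133 in Day4, whereas that of the transmembrane MMPs was 2152 and 2095 in Undiff and 14360.1 and 14325 in Day4. Per exon length, the GPI-anchored MMPs summed to 6.30 and 5.23 RPKM in Undiff, compared with 9.89 and 9.59 RPKM for the transmembrane MMPs. In Day4 these sums were 0.616 and 0.541 RPKM against 65.9 and 65.9 RPKM.

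Of the 4 remaining Mmp genes with a mean of at least 50 normalized counts, Mmp19 rose and the others stayed under the fold minimum. Mmp11, an MMP that furin activates before secretion, was at 2579 and 2265 normalized counts in Undiff and at 4392 and 4208 in Day4, a log2 fold change of 0.83 (SE 0.06) that stayed under the fold minimum. With means of 23.3 RPKM in Undiff and 41.3 RPKM in Day4, it was the Mmp gene with the highest level in Undiff, at 40.7% and 40.0% of the summed Mmp RPKM, and came after Mmp2 in Day4, at 13.4% and 13.2%. Mmp19 was at 25.0 and 25.1 in Undiff and at 138 and 121 in Day4, a log2 fold change of 2.35 (SE 0.22). It shares 22.3% of its exon bases with Tmem198b on the opposite strand, which was at 376 and 352 in Undiff and at 889 and 894 in Day4, and the methods name the Direct RNA libraries alone as counted by strand, without giving the setting for TruSeq. Mmp23, which is anchored through its amino terminus, was at 112 and 106 in Undiff and at 144 and 154 in Day4, a log2 fold change of 0.45 (SE 0.14). Mmp28, which is made by keratinocytes and other epithelial cells, was at 79.2 and 93.3 in Undiff and at 44.9 and 49.1 in Day4, a log2 fold change of -0.86 (SE 0.20). Neither Mmp23 nor Mmp28 reached the fold minimum, although in both the states did not overlap.

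The classical secreted MMPs lie in a cluster on chromosome 9 (chr9:7272514-7699585) that holds the collagenases Mmp1a, Mmp1b, Mmp8 and Mmp13, the stromelysins Mmp3 and Mmp10, matrilysin (Mmp7), macrophage elastase (Mmp12), the enamel protease Mmp20 and Mmp27. The 10 genes were near the floor, with at most 26 counts in any library and a summed level of 68.8 and 26.3 normalized counts in Undiff against 5.22 and 3.84 in Day4. These genes are known in other cells as targets of the transcription factor AP-1, which binds shortly before their start sites. The start sites of RefSeq on GRCm38.p6 were therefore searched from 250 bases before to 50 bases after, on both strands, for the AP-1 site TGANTCA and the TATA box TATAAA, and 32 of the 46 genes had an entry. The AP-1 letters stood in the promoters of 8 of the 10 cluster genes and of none of the other 22 genes, beside 7.81% of all 32851 promoters in the table. The matches of Mmp3, Mmp13 and Mmp20, the cluster genes with a call between the states, and of the second stromelysin Mmp10 are shown, 5′ to 3′ on the strand of the gene, with the AP-1 letters in capitals. Together with them stands the TATA box of Adamts1, in capitals, which is 1 of 2 such matches outside the cluster.
Mmp3: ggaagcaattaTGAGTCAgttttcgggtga
Mmp10: tagcacccatgTGAGTCAtgcttagtgacc
Mmp13: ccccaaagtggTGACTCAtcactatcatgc
Mmp20: catttgagacaTGAATCAtcacttacaggg
Adamts1: ctcctatgtggcTATAAAggggcggccggg

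The windows are chr9:7445765-7445794 (plus strand) for Mmp3, chr9:7502268-7502297 (plus strand) for Mmp10, chr9:7272468-7272497 (plus strand) for Mmp13, chr9:7628125-7628154 (plus strand) for Mmp20 and chr16:85803128-85803157 (minus strand) for Adamts1. The capitals begin at position -46 from the RefSeq start in Mmp3, at -63 in Mmp10, at -35 in Mmp13, at -95 in Mmp20 and at -32 in Adamts1. Mmp3 and Mmp10 have the same AP-1 letters, and those of Mmp13 are the same site read on the other strand. The letters of Mmp20 differ from all of these at the middle base. The TATA box stood in 9 promoters of the cluster and in those of Mmp21 and Adamts1 outside it, beside 13.6% of all promoters. The GC box GGGCGG showed the reverse, with a match in 18 of the 22 genes outside the cluster and in none of the 10 cluster genes, beside 35.7% of all promoters. The ratio of observed to expected CpG dinucleotides was at a median of 0.0862 (0 to 0.345) over the 12 promoters of the cluster and of 0.683 (0.0897 to 1.01) over the 23 promoters of the other genes, compared with 0.384 over all promoters. The retinoic acid response elements DR5 and DR2, searched as exact direct repeats of AGGTCA with 5 or 2 bases between them, had no match in these promoters. Each was held by only 0.00913% of all promoters, and variants of the repeat or sites outside the windows were not searched. The search thus cannot tell whether these genes have such elements. A match is a description of the letters in these windows, and the binding of a factor was not measured.

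In raw counts, Mmp3 was at 26 and 4 in Undiff replicates 1 and 2 and at 0 in both Day4 libraries, at least 5.86-fold lower against the floor, or 1.76-fold without Undiff replicate 1. Mmp13 was at 19 and 5 in Undiff and at 0 in Day4, at least 4.74-fold lower, or 2.20-fold without Undiff replicate 1. Mmp20 was at 8 and 8 in Undiff and at 3 and 0 in Day4, a ratio of 0.149 with a counting interval from 0.0278 to 0.520. These were the 3 cluster genes called lower, and none was called higher. Outside the cluster, Mmp21, known from the left-right patterning of the embryo, was also called lower, at 16 and 3 counts in Undiff and at 1 and 0 in Day4. In 3 of these genes the Undiff replicates stood apart, with replicate 1 above replicate 2 by 5.66 times for Mmp3 (95% exact counting interval 1.96 to 22.3), by 4.64 times for Mmp21 (1.33 to 24.9) and by 3.31 times for Mmp13 (1.20 to 11.3). Of the 37 protease and inhibitor genes with at least 10 counts in Undiff, 4 had a replicate ratio over 2, and the interval left out 1 for 11. Without Undiff replicate 1, or with all libraries thinned to the smallest total, Mmp3, Mmp13 and Mmp21 were no longer DEGs, and Mmp20 changed its call in 6 alternatives. Mmp10 was at 7 and 1 counts in Undiff and at 0 and 1 in Day4, a ratio of 0.0993 with a counting interval from 0.00224 to 0.741, and its mean was under the minimum of a DEG. The other cluster genes were at 5 counts or fewer in every library, and for them a difference between the states was not detectable at this depth.

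**Figure D3:**
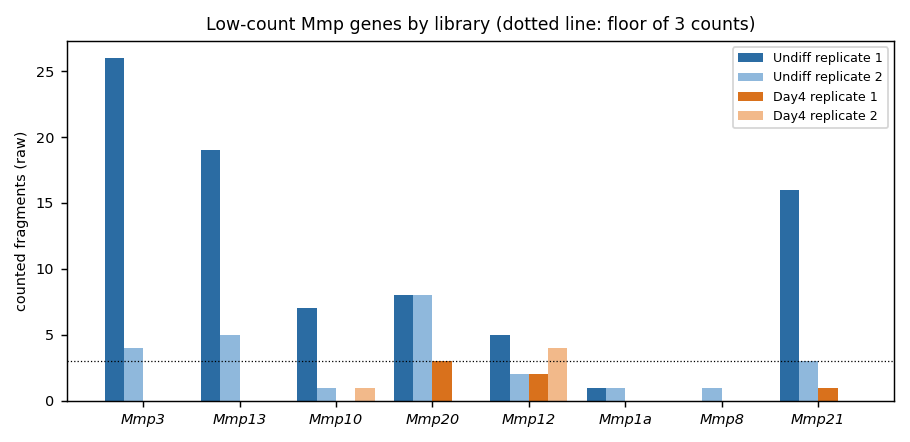
Raw counts of the Mmp genes with between 1 and 26 counts in the library where they were highest, in Undiff replicates 1 and 2 (dark and light blue) and Day4 replicates 1 and 2 (dark and light orange), with the floor of 3 counts as a dotted line. For Mmp3, Mmp13 and Mmp21 the counts of Undiff replicate 1 stand above those of all other libraries.

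Of the inhibitors, Timp2 and Timp3 rose and Timp1 did not reach the fold minimum. Timp3 (chr10:86300372-86349506, plus strand) was at 746 and 749 normalized counts in Undiff and at 9736 and 9572 in Day4, a log2 fold change of 3.69 (SE 0.05). It shares 21.3% of its exon bases with Syn3 on the opposite strand, which was at 86.5 and 118 in Undiff and at 282 and 306 in Day4, far below Timp3 in Day4. Timp2, which both inhibits Mmp2 and takes part in its activation by Mmp14, was at 599 and 518 in Undiff and at 3566 and 3605 in Day4, a log2 fold change of 2.68 (SE 0.07). Mmp2, Mmp14 and Timp2, the genes of that complex, were thus all higher in both Day4 libraries than in both Undiff libraries. Timp1, which inhibits most MMPs but the transmembrane ones only weakly, was at 986 and 1016 in Undiff and at 579.8 and 603 in Day4, a log2 fold change of -0.76 (SE 0.07). Timp4, at 7.29 and 10.8 in Undiff and at 13.6 and 7.68 in Day4, was low with overlapping states, and its log2 fold change was 0.19 (SE 0.52).

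Per exon length, the most abundant inhibitor differed between the states. Timp1 made up 81.8% and 83.5% of the summed Timp RPKM in Undiff and 23.6% and 24.4% in Day4. Timp3 went from 6.75% and 6.71% to 43.2% and 42.3%, and Timp2 from 11.3% and 9.70% to 33.1% and 33.3%. The mean level of Timp1 was 30.1 RPKM in Undiff and 17.8 RPKM in Day4, and that of Timp3 was 2.45 and 31.7 RPKM. The sum over each family was higher in both Day4 libraries than in both Undiff libraries. The summed Adamts level was 13.0 and 13.2 RPKM in Undiff and 78.4 and 79.0 RPKM in Day4, the summed Mmp level 60.9 and 54.5 RPKM in Undiff and 315 and 307 RPKM in Day4, and the summed Timp level 36.2 and 36.6 RPKM in Undiff and 73.9 and 74.3 RPKM in Day4. The ratio of summed Timp to summed Mmp RPKM was 0.59 and 0.67 in Undiff and 0.23 and 0.24 in Day4. With the length of the longest transcript in place of the exon union, it was 0.51 and 0.57 in Undiff and 0.26 and 0.27 in Day4. In summed normalized counts, without scaling to length, the ratio was 0.27 and 0.29 in Undiff and 0.31 in both Day4 libraries, so that the direction of this difference depended on the scaling to gene length. These are ratios of RNA levels, and protein or enzyme activity was not measured.

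**Figure D4:**
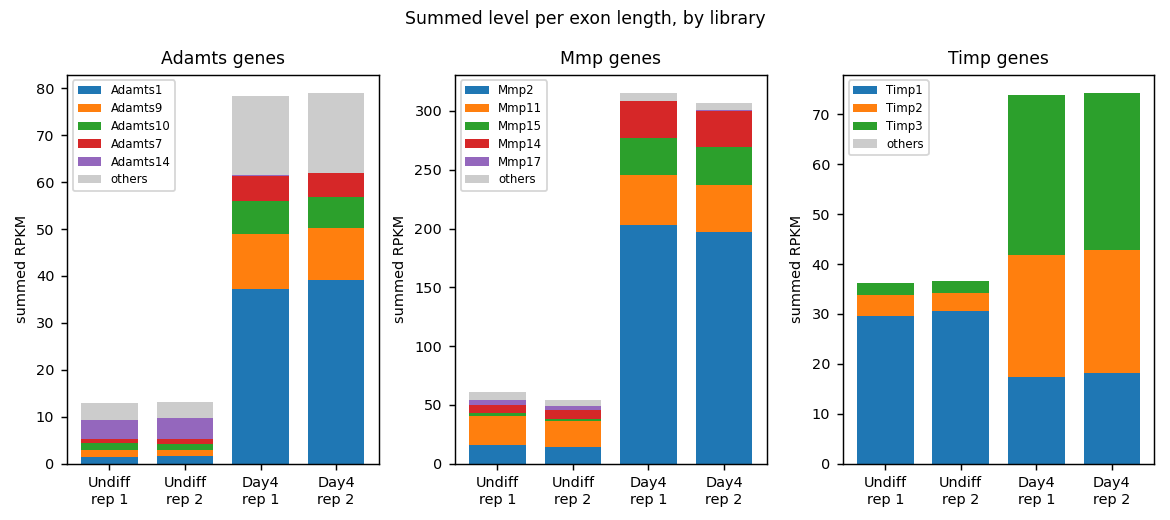
Summed RPKM of the Adamts, Mmp and Timp genes in each library (bars from 0, each panel with its own scale), divided into the genes named in the keys and the others. In Undiff the bars of Adamts14, Mmp11 and Timp1 are the tallest parts of their families, whereas in Day4 Adamts1, Mmp2 and Timp3 are.

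Genes that act with these proteases were taken from 7 lists of pathway genes, tested over all 19891 genes, with p-values adjusted by the Benjamini-Hochberg method. The lists are set beside the share of DEGs over all tested genes, which was 42.8%. The 7 ADAMTS-like and papilin genes, which resemble ADAMTS proteases without the protease domain and bind microfibrils, had 5 higher and 2 lower DEGs and a median log2 fold change of 3.93. Adamtsl3 was at 11.5 and 9.57 normalized counts in Undiff and at 1235 and 1233 in Day4, a log2 fold change of 6.85 (SE 0.14, adjusted p = 7.2e-14). The 17 substrates and cofactors of ADAMTS proteases had 7 higher and 7 lower DEGs, with a median log2 fold change of 0.98. The fibrillin gene Fbn2, a building block of microfibrils, was at 139.6 and 126 in Undiff and at 4197 and 4462 in Day4, a log2 fold change of 5.02 (SE 0.08, adjusted p = 6.6e-15). The large proteoglycans differed from each other in direction. Versican (Vcan), the substrate of Adamts1 and Adamts9 in embryonic tissues, was at 1642 and 1646 in Undiff and at 8069 and 8201 in Day4 and rose by 2.31 on the log2 scale (SE 0.05, adjusted p = 5.4e-14). Aggrecan (Acan), the proteoglycan of cartilage, was at 663 and 609 in Undiff and at 5.22 and 3.07 in Day4 and fell by 7.28 (SE 0.20, adjusted p = 1.3e-12).

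Enzymes that process the proproteins were the second set. Of 6 tested genes for proprotein convertases and for the glycosylation of thrombospondin repeats, 3 were higher and 1 lower, with a median log2 fold change of 1.03. Furin, which activates transmembrane MMPs, Mmp11 and many ADAMTS proteases, was at 961 and 861 normalized counts in Undiff and at 2882 and 2643 in Day4 and rose by 1.60 (SE 0.07, adjusted p = 7.1e-11). Pcsk5 was at 10.4 and 8.38 in Undiff and at 1002 and 1001 in Day4 (log2 fold change 6.71, SE 0.15, adjusted p = 1.7e-13). Pcsk6, at 1621 and 1656 in Undiff and at 306 and 336 in Day4, moved the other way and fell by 2.34 (SE 0.07, adjusted p = 2.7e-12). The list of astacin and HtrA proteases, which also holds the proteinase enhancers Pcolce and Pcolce2, had 2 higher and 3 lower DEGs of 9 tested. Pcolce2 was among the lower DEGs (log2 fold change -4.51), and the median log2 fold change of -0.20 was the value of Pcolce. Bmp1, the procollagen C-proteinase and thus the counterpart of Adamts2, Adamts3 and Adamts14, was at 585 and 550.4 in Undiff and at 4659 and 4416 in Day4 and rose (adjusted p = 5.7e-14), from a mean of 568 to a mean of 4538. Mep1b, a meprin subunit, fell by 7.71 (SE 0.25, adjusted p = 4.4e-12), from 485 and 493 normalized counts to 4.18 and 0.768, with log2 fold changes of -9.10 without Day4 replicate 1 and of -6.85 without Day4 replicate 2.

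The list of inhibitors other than the TIMPs, which also holds the clearance receptor Lrp1, had 4 higher and 3 lower DEGs of 8 tested. The median log2 fold change was 0.85, and Lrp1, which is not an inhibitor, was among the higher DEGs (log2 fold change 1.82). Reck, a membrane-anchored inhibitor of Mmp2, Mmp9 and Mmp14, was at 666 and 617 normalized counts in Undiff and at 5239 and 5502 in Day4 and rose by 3.06 (SE 0.06, adjusted p = 4.0e-14). It moved in the direction of Timp2 and Timp3. Spock3, a testican, rose by 6.43 (SE 0.18, adjusted p = 1.1e-12), from 6.25 and 10.8 to 711 and 744. The plasma protease trap A2m fell by 3.17 (SE 0.21, adjusted p = 6.8e-09), from 1515 and 937 to 135 and 139, and its Undiff replicates lay far apart.

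The plasminogen activator system, which can activate MMP proenzymes through plasmin, had 4 higher and 3 lower DEGs of 9 tested, with a median log2 fold change of 0.03. Among the higher DEGs, Plgrkt (log2 fold change 1.00) and Serpinf2 (1.53) lost their calls under DESeq2 with and without shrinkage. This left 5 DEGs in the list. Plasminogen itself (Plg) was at the floor in every library. The activator Plat was at 211 and 151 normalized counts in Undiff and at 12977 and 12908 in Day4 and rose by 6.15 (SE 0.08, adjusted p = 2.2e-15). The activator Plau was at 169 and 146 in Undiff and at 468 and 499 in Day4 and rose by 1.62 (SE 0.11, adjusted p = 8.2e-09). The list of 13 ADAM genes, relatives of the ADAMTS family, had 4 higher and 3 lower DEGs. Their median log2 fold change was 0.40. Some of these proteins shed cell surface proteins, and others act in adhesion without protease activity. Adam12 rose by 6.78 (SE 0.12, adjusted p = 1.7e-14), from 21.9 and 34.7 to 3199 and 2969, and Adam23, which has no protease activity, fell by 4.80 (SE 0.06, adjusted p = 1.1e-15), from 6873 and 6839 to 244 and 247. An exact permutation test of 2 libraries against 2 cannot give a two-sided p under 0.333, and the adjusted p-values above draw their precision from a spread that edgeR shares between genes.

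**Figure D5:**
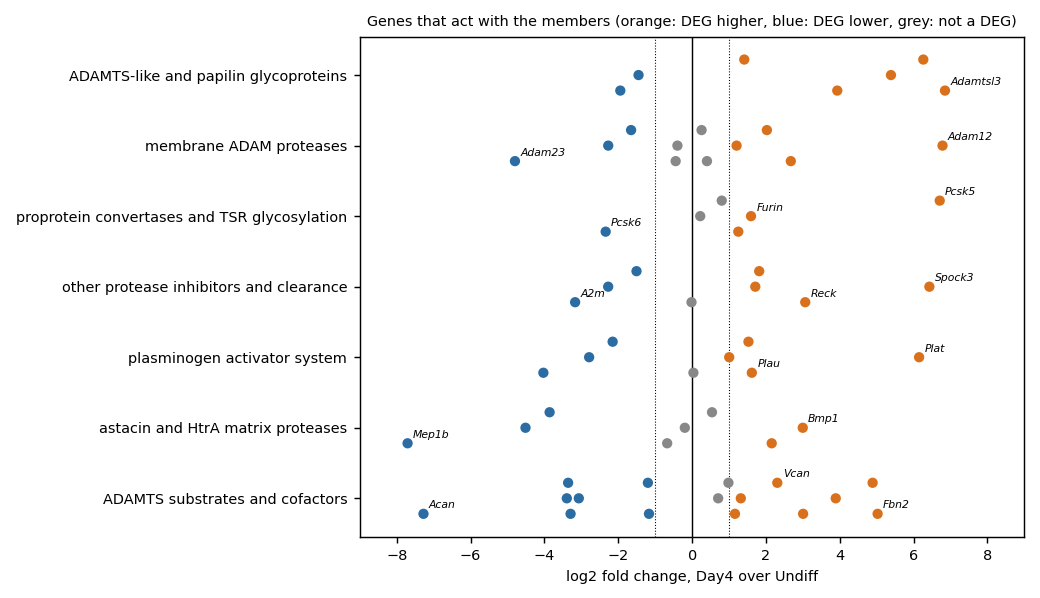
Log2 fold change of Day4 over Undiff for the genes of the 7 pathway lists with a mean of at least 5 normalized counts (1 point per gene, spread vertically within a list for legibility), with DEGs higher in orange, DEGs lower in blue and other genes in grey. All 7 lists hold DEGs of both directions, from Mep1b and Acan on the left to Adamtsl3, Adam12 and Pcsk5 on the right.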

How the data were processed

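Reads were trimmed (cutadapt) and aligned to mm10 (STAR 2.4.2a) by the authors, who then counted with HTSeq the fragments that aligned uniquely. The deposited values are raw counts per gene symbol. Summary lines were left out, among them the fragments on no gene or on more than 1 gene, which together took between 9.41% and 15.1% of a library. Groups and replicate numbers came from the sample labels. The genes described and all lists were chosen with earlier results of these data known. Counts were tested with edgeR 4.0.16 in R 4.3.3 (TMM, glmQLFit with legacy = FALSE, glmQLFTest, no replicate term) over 19891 genes, those with at least 1 count in at least 1 library. The SE is the log2 fold change divided by the square root of F. The biological coefficient of variation was 3.66%. RPKM used the union of exons in GENCODE vM21 (GRCm38, the assembly of mm10), which is not the annotation the authors counted on, and the effective library sizes. Promoters are RefSeq windows of 300 bases (GRCm38.p6).

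Protease and inhibitor genes with a mean of at least 50 normalized counts were named with their values. From each pathway list, the DEGs of highest and lowest log2 fold change with a mean of at least 200 were named, with Reck, Furin, Vcan, Plau and Plat, and 1 further gene of this rule is not reported here. Other genes, such as Mmp24 and those of the chromosome 9 cluster, were named outside this rule after their values were seen. The test was first checked on simulated counts with known changes. The exons of 11 of the genes described overlap another counted gene, each on the opposite strand. The alternatives were DESeq2 1.42.0 with and without shrinkage, other scalings, a filter on low counts, a replicate block, thinning, leaving out each library, and another gene length for RPKM. An alignment of protein sequences was planned and not made.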

Additional observations from a re-analysis of the deposited data

How the results depend on the processing

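The number of higher protease and inhibitor genes stayed at 20 under every alternative run, and among the 46 genes no call of one with a mean of at least 50 normalized counts changed. The 10 lower genes became 6 under the filter on low counts (filterByExpr), 6 with all libraries thinned to the smallest total and 6 without Undiff replicate 1, a range of 6 to 10 over the libraries left out. In each case Mmp3, Mmp13, Mmp20 and Mmp21 were untested or no longer called, all with at most 26 counts. The count of DEGs over all genes was 8521, between 8306 and 8410 with a library left out, and the other counts stayed within 1.5 times. The log2 fold change of Adamts15 turned to 0.0051 with library totals in place of TMM, to 0.0854 without Undiff replicate 1 and to 0.0658 without Day4 replicate 1, a range of -0.2697 to 0.0854 over the libraries left out. With the replicate number as a block, 8515 genes were DEGs and the protease and inhibitor counts stayed at 20 and 10. The deviations of same-numbered replicates had a correlation of -0.0046 over 13318 genes, so that no shared effect of the replicate number was seen. This cannot tell whether same-numbered samples were grown as pairs. Using the longest transcript as gene length moved the mean summed RPKM in Day4 to 107.6 (Adamts), 370.1 (Mmp) and 98.4 (Timp), and library totals moved it to 80.5, 318 and 75.8. Over the 13318 genes with a mean of at least 50 normalized counts, the median shift in log2 fold change was at most 0.07 under any scaling. The depth limits the chromosome 9 Mmp genes, which lay near the floor of 3 counts. With 2 libraries per state the spread rests on few samples, and no Day4 library without RA was analysed here.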
